A study of Mus musculus with 12 samples.

Results

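Primary kidney tumors of mice in which the Hippo pathway kinase genes Lats1 and Lats2 had been made deletable were compared with sorted proximal tubule cells, the kidney cell type in which the deletion was switched on. The comparison used 6 of the 12 bulk RNA libraries of the series, 3 tumors and 3 sorted preparations, and 16313 of the 24432 genes in the deposited table, namely those at 1 FPKM or more in at least 3 libraries. The tumors came from Slc34a1CreERT2;Lats1/2flox/flox mice of mixed background. In these mice the Slc34a1 gene, which encodes a phosphate transporter of the proximal tubule, drives a Cre recombinase that tamoxifen activates. Tamoxifen was given in 3 injections at 1 month of age, and the tumors were dissected 4 months later. The sorted cells came from adult Slc34a1CreERT2;Lats1c/c;Lats2c/+;RosaTomato mice, also of mixed background. They were collected by flow cytometry. These mice carried the same Cre driver and a Rosa reporter, with Lats1 homozygous and Lats2 heterozygous for the conditional allele. Both groups thus shared the driver and the conditional Lats1 alleles, and both were extracted with a kit for small RNA amounts. The columns of the sorted libraries are named wild type. The labels do not state whether these mice received tamoxifen or whether their alleles had recombined. The labels also do not state whether the 3 samples of a group were taken from different mice. The p-values then reflect the variation among libraries only, part of which may be technical. That variation was estimated over all 12 libraries of the series. A tumor piece can hold every cell type of the tissue, and the sorted libraries also held some messages of other cell types, such as Umod of the thick limb and Emcn of endothelium, whose values are given below. In such bulk samples fewer cells of a type and less RNA per cell cannot be told apart.

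LATS1 and LATS2 phosphorylate the transcriptional coactivators YAP and TAZ and so keep them out of the nucleus. Without the kinases, YAP and TAZ bind TEAD proteins on DNA and raise growth and matrix genes such as Ccn1, Ccn2 and Ankrd1. The proximal tubule reabsorbs glucose, amino acids, phosphate and filtered protein, depends on mitochondrial oxidation, and holds its identity through factors such as HNF4A. After injury its cells lose transporters and take up keratins, vimentin, Lcn2, Vcam1 and Havcr1.

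FPKM is the number of sequenced fragments scaled by transcript length and library total, so that levels of different genes can be compared per length. Below, values are listed in the order of libraries 1, 2 and 3. A change is the mean difference in log2(FPKM + 1), tumors minus sorted cells, ± SE with 3 libraries on each side. The spread behind each SE and p was taken from all 12 libraries, lung metastases and allograft tumors included. Each adjusted p is from limma, corrected by the Benjamini-Hochberg method over all 16313 genes, and a gene was called at an adjusted p under 0.05. The word "scaled" marks the same quantity after median-of-ratios scaling. On this log scale changes of genes at low levels are understated.

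The tumors were spread and the sorted cells were not. Across genes, scaled log2 levels correlated at 0.960 to 0.968 among the sorted libraries but at 0.798 to 0.928 among the tumors, which are descriptions across genes and not tests. Tumor 1 was farthest from the sorted cells (0.651 to 0.662), tumor 3 was between (0.787 to 0.792) and tumor 2 was nearest (0.866 to 0.871). As deposited, 7861 genes were higher in the tumors (48.2% of those tested) and 800 lower (4.9%), with a median change of 0.59 over all genes. Scaled, 4198 were higher (25.7%) and 2871 lower (17.6%), with a median of 0.09, so that the share of calls in the higher direction went from 90.8% to 59.4%. All 4198 genes higher once scaled were also higher as deposited, all 800 lower as deposited were also lower once scaled, and Rbmx, a splicing factor gene, was the only gene called in opposite directions by the 2 treatments. Counts are therefore given under both treatments, and the verbs rose and fell are kept for genes called the same way under both unless stated. A single microRNA gene, Mir6236, took 27.1% to 34.3% of the FPKM sum of each tumor and at most 0.00775% of a sorted library, which is not its share of fragments because the gene is short. The low values pointed to about 15.6 to 18.6 M fragments (M, mega) for each tumor. For the sorted libraries they pointed to 5.35 to 7.09 M, from weaker steps, so that values well below 1 FPKM there rest on few fragments. The markers that define the sorted cells were present: the 24 proximal tubule transporter genes summed to 4670.2, 4960.1 and 5555 FPKM in them. The same sum was 317, 5472 and 1476 FPKM in the tumors, so that by this sum tumor 2 was at the level of the sorted cells. Results are given per library for this reason, and a fit with tumor 1 as the only tumor, in which its spread is assumed to be that of the other groups, stands beside them.

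**Figure D1:**
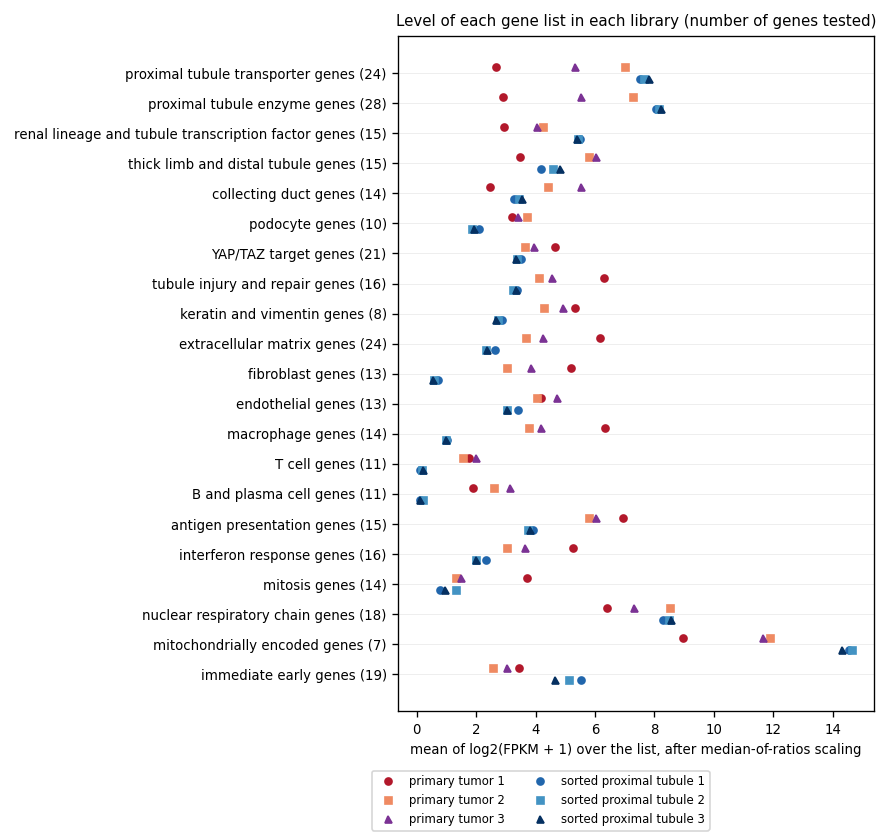
Mean scaled log2(FPKM + 1) of 21 gene lists (horizontal axis) in each of the 6 libraries, with the number of genes tested in brackets. Red, orange and purple points are tumors 1, 2 and 3 and blue points the sorted cells, and the shapes mark libraries 1, 2 and 3. Tumor 1 sits far below the sorted cells for tubule transporters (2.69 against 7.52 to 7.81) and far above them for macrophage genes (6.33 against 0.98 to 1.01), while tumors 2 and 3 lie between for both.

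The deleted genes themselves gave no drop in FPKM as deposited. Lats1 (chr10:7681214-7716460, GRCm38) stood at 12.3, 13.0 and 14.7 FPKM in the tumors and 11.9, 12.7 and 12.8 in the sorted cells (log2 change 0.09 ± 0.15, adjusted p = 0.622), and was called lower once scaled (-0.52, adjusted p = 0.0216). Lats2 (chr14:57689662-57758388) stood at 19.5, 13.0 and 21.4 FPKM against 10.5, 10.7 and 10.96 and was called higher as deposited (0.66 ± 0.19, adjusted p = 0.0149, not called without tumor 3, adjusted p = 0.0527), but not scaled (0.06, adjusted p = 0.829). The tumors also hold cells in which the driver is silent, and a value per gene does not show whether the floxed exons were present, so neither gene checks the genotype. Slc34a1 (chr13:55398187-55415592), whose promoter drives the recombinase, stood at 6.17, 833 and 166 FPKM in the tumors and 866, 893 and 1039.8 in the sorted cells. As deposited it was low in tumor 1, intermediate in tumor 3 and near the sorted level in tumor 2, and its change was called only once scaled (-3.86, adjusted p = 0.0293).

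Of the 22 Hippo pathway genes 13 were higher and 1 lower as deposited, with a median change of 0.59, the same as the median over all genes. Scaled, 7 were higher and 6 lower (median -0.03). The 7 that rose under both treatments were kinases and their partners upstream (Stk3, Stk4, Mob1a and Frmd6) and partners of TEAD or a TEAD itself (Tead2, Vgll3 and Vgll4). Stk3, which encodes the kinase MST2 that activates LATS, stood at 20.5, 18.7 and 14.53 FPKM in the tumors and 5.88, 5.81 and 8.16 in the sorted cells, with no overlap (1.31 ± 0.17, adjusted p = 0.000165, scaled 0.73, adjusted p = 0.00563). Vgll4, which encodes a protein that competes with YAP for TEAD, stood at 50.3, 33.1 and 31.7 FPKM against 16.3, 14.3 and 15.8 (1.23 ± 0.18, adjusted p = 0.00032, scaled 0.61, adjusted p = 0.0214). The TEAD genes split: Tead2 stood at 13.8, 1.80 and 3.11 FPKM against 0.320, 0.387 and 0.230 and rose (2.08 ± 0.49, adjusted p = 0.00499, scaled 1.83), most in tumor 1, whereas Tead1 stood at 14.6, 8.74 and 16.9 FPKM against 19.7, 19.3 and 17.2 and was called lower only once scaled (-1.11, adjusted p = 0.00547). Vgll3 followed Tead2, at 9.38, 1.61 and 2.07 FPKM against 0.218, 0.223 and 0.181 (1.85 ± 0.47, adjusted p = 0.00733, scaled 1.64). The gene called lower, Wwc1, which encodes the scaffold KIBRA, had 31.9, 36.6 and 60.2 FPKM against 72.3, 70.1 and 79.1 (-0.82 ± 0.28, adjusted p = 0.0285, not called without tumor 1 or 2 or sorted library 1, 2 or 3, adjusted p = 0.0578 to 0.0926). Yap1 stood at 26.9, 28.7 and 29.5 FPKM against 18.9, 18.9 and 18.9 (0.56 ± 0.24, adjusted p = 0.0744, scaled -0.06) and was not called under either treatment. Wwtr1, which encodes TAZ, was called as deposited (32.6, 30.8 and 25.3 FPKM against 17.7, 19.6 and 20.4, 0.59 ± 0.15, adjusted p = 0.00753) by as much as the median gene moved, and scaled it lay at -0.03 with no call (adjusted p = 0.862).

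The 21 YAP/TAZ target genes gave 9 higher and 2 lower as deposited, and 7 higher and 2 lower scaled, with medians of 0.62 and 0.10 beside 0.59 and 0.09 over all genes. Over all genes 48.2% were higher as deposited and 25.7% scaled, so the list as a whole was close to the other genes. Its members split, with some targets far up and 2 down. Axl, which encodes a receptor tyrosine kinase, stood at 205, 46.6 and 48.1 FPKM in the tumors and 1.88, 2.09 and 1.79 in the sorted cells (4.75 ± 0.47, adjusted p = 4.39e-05, scaled 4.25, adjusted p = 0.000133). Ankrd1, a nuclear ankyrin repeat protein gene much used as a YAP reporter, stood at 27.9, 3.26 and 4.74 FPKM against 1.59, 0.376 and 0.307 (2.42 ± 0.59, adjusted p = 0.00633, scaled 2.08, adjusted p = 0.0188). Ccn1, which encodes a secreted matrix protein, went the other way at 87.3, 20.6 and 27.1 FPKM against 344, 248 and 131 (-2.57 ± 0.49, adjusted p = 0.00163, scaled -3.21, adjusted p = 0.000733). Tumor 1 was highest of the tumors for each of them. Ccn1 is also an immediate early gene, and in the sorted cells it and Fos (397, 252 and 155 FPKM) were both highest in library 1 and lowest in library 3.

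The promoters of these 3 genes are shown because they hold the 6-base sequence that TEAD proteins are known to bind, GGAATG, or its reverse complement CATTCC, yet changed in both directions. Each run is 250 bases before to 50 bases after the RefSeq start (GRCm38.p6, minus strand in all 3 cases, written 5′ to 3′), and the capitals mark the motif.
Ankrd1 promoter, chr19:36119795-36120094: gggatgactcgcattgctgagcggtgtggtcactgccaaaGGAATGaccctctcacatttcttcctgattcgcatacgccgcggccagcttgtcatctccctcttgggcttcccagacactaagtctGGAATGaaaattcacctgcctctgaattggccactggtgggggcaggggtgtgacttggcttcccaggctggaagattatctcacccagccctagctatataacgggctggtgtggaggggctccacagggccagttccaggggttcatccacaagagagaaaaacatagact
Axl promoter, chr7:25788684-25788983: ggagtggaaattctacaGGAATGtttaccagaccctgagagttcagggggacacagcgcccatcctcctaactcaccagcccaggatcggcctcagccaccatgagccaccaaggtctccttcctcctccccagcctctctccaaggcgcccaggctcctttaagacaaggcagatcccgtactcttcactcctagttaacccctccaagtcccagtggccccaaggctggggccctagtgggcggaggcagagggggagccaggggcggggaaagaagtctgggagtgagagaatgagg
Ccn1 promoter, chr3:145649936-145650235: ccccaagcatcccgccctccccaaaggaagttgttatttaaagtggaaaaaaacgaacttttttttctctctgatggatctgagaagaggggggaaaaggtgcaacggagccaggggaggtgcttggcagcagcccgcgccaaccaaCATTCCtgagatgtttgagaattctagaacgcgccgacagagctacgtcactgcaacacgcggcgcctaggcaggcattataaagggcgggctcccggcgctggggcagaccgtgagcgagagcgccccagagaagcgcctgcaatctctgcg
Searched on both strands, the motif was in 4817 of the 32851 promoters of the RefSeq table (14.7%) and in those of 6 of the 14 listed genes that the table held (42.9%), namely Amotl2, Ankrd1, Axl, Ccn1, Crim1 and Ptpn14. Of these 6 genes 3 rose, 1 fell and Amotl2 and Crim1 were not called. A match of 6 letters is a description and does not show binding.

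Other targets were higher in all tumors but peaked in different ones. Ptpn14 encodes a phosphatase that binds YAP, and stood at 30.1, 12.6 and 32.5 FPKM against 2.32, 2.19 and 2.30 (2.89 ± 0.31, adjusted p = 6.42e-05, scaled 2.38, adjusted p = 0.000388). It was lowest in tumor 2, as was the RNA-binding protein gene Rbms3 at 41.6, 13.9 and 43.3 FPKM against 0.774, 0.778 and 0.634 (4.14 ± 0.36, adjusted p = 2.25e-05, scaled 3.76). Igfbp3, which encodes a binding protein of insulin-like growth factors, was highest in tumor 2 instead, at 65.8, 74.2 and 30.3 FPKM against 12.2, 5.17 and 6.31 (2.68 ± 0.45, adjusted p = 0.000791, scaled 2.09). Ccn2, the matrix protein gene most often measured as a YAP target, stood at 183, 48.6 and 68.1 FPKM against 6.78, 4.93 and 7.30 (3.56 ± 0.43, adjusted p = 0.000124, scaled 2.98). Ccdc80, a matrix gene, stood at 84.7, 5.53 and 9.04 FPKM against 1.68, 0.511 and 0.542 (3.27 ± 0.80, adjusted p = 0.0064, scaled 2.89). Both were highest in tumor 1, and Ccdc80 there exceeded the other tumors many times over. Amotl2, itself a YAP inhibitor, had 89.7, 24.9 and 30.7 FPKM against 36.2, 38.2 and 37.7 and was not called (0.13 ± 0.40, adjusted p = 0.794): only tumor 1 was above the sorted cells, and the other two were below. Nuak2, a kinase gene, fell in all tumors, at 19.2, 31.3 and 18.8 FPKM against 48.5, 62.5 and 55.5 (-1.26 ± 0.23, adjusted p = 0.00118, scaled -1.89). Markers of other cell types were also higher in the tumors: the 13 fibroblast genes summed to 1199, 181 and 339 FPKM in the tumors and 8.33, 6.77 and 5.68 in the sorted cells. Not all targets followed this order of the tumors, and the part of other cell types in their values was not tested.

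**Figure D2:**
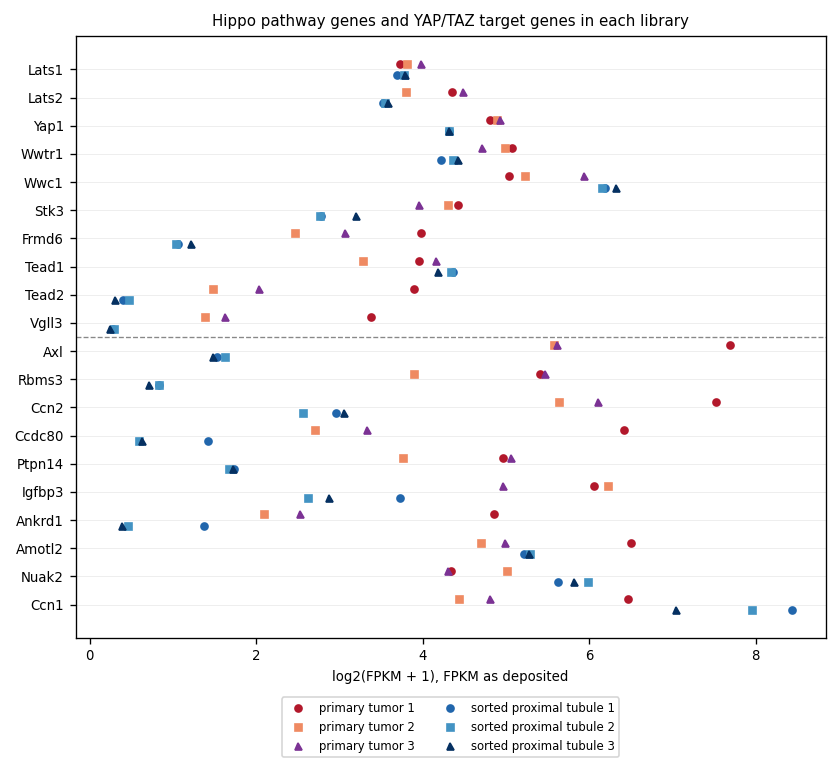
Levels as log2(FPKM + 1), FPKM as deposited (horizontal axis), of 10 Hippo pathway genes (above the dashed line) and 10 YAP/TAZ target genes (below it) in each library. Lats1, Yap1 and Wwtr1 lie close together in all 6 libraries, Axl and Rbms3 are separated between the groups, and Ccn1 and Nuak2 are lower in all 3 tumors.

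Part of the proximal tubule genes were lower in the tumors, and the tumors differed widely from each other. Of 24 transporter genes 12 were lower as deposited and 17 scaled, and none higher, with medians of -1.97 and -2.60. The count as deposited was 21 without tumor 2, 9 without tumor 1, 8 without tumor 3, and 7, 7 and 6 without sorted libraries 1, 2 and 3. With tumor 1 as the only tumor all 24 were lower once scaled, at a median of -5.04. For 10 of the 24 all tumors lay below all sorted libraries as deposited, beside 5.52% of all genes. Slc7a8, which encodes the basolateral amino acid exchanger LAT2, stood at 7.05, 15.5 and 7.23 FPKM in the tumors and 72.8, 96.4 and 72.8 in the sorted cells (-2.97 ± 0.28, adjusted p = 3.15e-05, scaled -3.60). Slc22a8, which encodes the organic anion transporter OAT3, stood at 0.441, 98.0 and 22.0 FPKM against 259, 239.7 and 310.0 (-4.18 ± 1.12, adjusted p = 0.01, scaled -4.79). Slc4a4, the sodium bicarbonate cotransporter gene, stood at 32.6, 345 and 76.7 FPKM against 408, 542 and 559.6 (-2.37 ± 0.68, adjusted p = 0.0143, scaled -3.01). In each of these the groups did not overlap, tumor 2 was highest and tumor 1 lowest among the tumors. With the spread taken from these 6 libraries alone, Slc22a8 and Slc4a4 were not called (adjusted p = 0.0662 and 0.0655), nor was Lrp2 below (0.0516).

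Other transporters were at or above the sorted level in tumor 2 as deposited. The organic anion transporter gene Slc17a3 stood at 2.91, 193 and 49.0 FPKM against 46.2, 42.2 and 48.9 (adjusted p = 0.715). The urate transporter gene Slc22a12 stood at 2.14, 699 and 181 FPKM in the tumors and 267, 153 and 197 in the sorted cells (-1.45 ± 1.48, adjusted p = 0.425). Slc22a6, which encodes OAT1, stood at 0.857, 376 and 67.1 FPKM against 148, 121 and 166 (adjusted p = 0.25), and the glucose transporter gene Slc5a2 (SGLT2) at 6.57, 335 and 69.7 against 272, 361 and 333 (adjusted p = 0.0552, called lower once scaled, -3.15, adjusted p = 0.0247). Tumor 1 alone was far below the sorted cells for Slc22a12, Slc22a6 and Slc5a2, at -6.57, -6.82 and -6.00 scaled. Of 4 receptor genes for filtered protein 2 were lower as deposited (4 without tumor 2) and 4 scaled. Lrp2, which encodes megalin, stood at 35.9, 472 and 108 FPKM against 800.2, 839 and 917 (-2.78 ± 0.72, adjusted p = 0.00858, scaled -3.43). Its partner cubilin, Cubn, stood at 8.00, 89.0 and 27.0 FPKM against 205, 205 and 242 (-2.94 ± 0.61, adjusted p = 0.00263, scaled -3.58). All tumors were below all sorted libraries for both.

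Of 28 proximal tubule enzyme genes 11 were lower as deposited and 18 scaled, and none higher (medians -2.18 and -2.81). The count as deposited was 23 without tumor 2, and 7, 7 and 6 without sorted libraries 1, 2 and 3. As deposited, the enzyme sum of tumor 2 was 16019.5 FPKM, above all sorted libraries (14727, 15320.4 and 15831), beside 347 in tumor 1 and 3575 in tumor 3. The mean scaled log2(FPKM + 1) of these genes was lower in tumor 2 (7.27) than in the sorted cells (8.05 to 8.22). Acy3, an aminoacylase gene, stood at 9.33, 1416 and 404 FPKM in the tumors and 244, 269 and 266 in the sorted cells (adjusted p = 0.757). Other enzymes were well below the sorted cells in all tumors, tumor 2 included. Hpd (chr5:123171807-123182727), the tyrosine-degrading enzyme 4-hydroxyphenylpyruvate dioxygenase, led the 10 largest falls, ranked with the same exclusions as the rises below, at 0, 23.5 and 6.00 FPKM in the tumors and 529, 447 and 835 in the sorted cells (-6.71 ± 0.86, adjusted p = 0.000165, scaled -7.31). Bhmt (chr13:93616675-93637961), which remethylates homocysteine with betaine, stood at 0.442, 5.80 and 1.57 FPKM against 122, 119.7 and 144 (-5.46 ± 0.43, adjusted p = 1.26e-05, scaled -6.04). Dpys, dihydropyrimidinase, stood at 0.618, 4.72 and 1.07 FPKM against 21.7, 20.3 and 20.1 (-3.02 ± 0.37, adjusted p = 0.000129, scaled -3.58). These 3 genes were low in tumor 2, as the ranking required of Hpd and Bhmt. Pck1, the gluconeogenic enzyme gene, stood at 10.3, 1988 and 402 FPKM in tumors 1 to 3 beside 2179, 1356 and 1171 in the sorted cells. Fbp1 stood at 17.4, 1116 and 216 FPKM beside 652, 739.6 and 719. Neither of these 2 was called (adjusted p = 0.151 and 0.134). Hao2, a peroxisomal hydroxyacid oxidase gene, stood at 18.4, 363 and 73.2 FPKM against 882, 1330.1 and 997 (-3.71 ± 0.79, adjusted p = 0.00302, scaled -4.35). Gatm, the creatine synthesis enzyme gene, stood at 23.3, 287 and 66.6 FPKM against 623, 797 and 617 (-3.11 ± 0.78, adjusted p = 0.00723, scaled -3.76). Acmsd, which diverts tryptophan breakdown from NAD synthesis, stood at 2.55, 44.1 and 11.1 FPKM against 109.6, 82.1 and 76.7 (-2.84 ± 0.68, adjusted p = 0.00559, scaled -3.47). In all 3 the tumors lay below the sorted cells, with tumor 2 the highest and tumor 1 the lowest of the tumors.

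Among 15 transcription factor genes of the renal lineage and the tubule, 8 were lower as deposited and 11 scaled (medians -0.96 and -1.59), and none was higher. Without sorted library 1 the count as deposited was 4, and without sorted library 2 it was 5. Sall1, a zinc finger factor of the nephron lineage, was low in all tumors at 4.51, 6.54 and 10.6 FPKM against 27.9, 23.5 and 25.7 (-1.76 ± 0.25, adjusted p = 0.000279, scaled -2.37). Lhx1 stood at 0.733, 2.41 and 1.60 FPKM against 7.63, 6.89 and 6.22 (-1.67 ± 0.29, adjusted p = 0.001, scaled -2.19). Maf stood at 42.4, 85.9 and 28.1 FPKM against 189, 160.0 and 154 (-1.81 ± 0.35, adjusted p = 0.00165, scaled -2.45). For these 3 the groups did not overlap. Hnf4a, the main driver of proximal tubule identity, stood at 9.10, 167 and 54.4 FPKM against 203, 229 and 228 (-2.28 ± 0.76, adjusted p = 0.0281, scaled -2.92, not called without sorted library 1, 2 or 3, adjusted p = 0.0593 to 0.0683). Ppara, a regulator of fatty acid oxidation, stood at 1.82, 29.6 and 8.95 FPKM against 39.5, 40.9 and 40.4 (-2.12 ± 0.63, adjusted p = 0.0166, scaled -2.73). Neither was called with the spread of the 6 libraries alone (adjusted p = 0.108 and 0.0854). Pax8, which marks renal epithelium along the whole nephron and renal carcinoma, did not follow them, at 40.0, 30.6 and 48.7 FPKM against 44.2, 37.5 and 35.5 (0.01 ± 0.30, adjusted p = 0.989, scaled -0.63, adjusted p = 0.131), and its ranges overlapped as deposited. Pax2 was likewise not called (3.76, 2.40 and 13.8 FPKM against 9.66, 10.8 and 8.07, adjusted p = 0.247).

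Genes of other nephron segments were unevenly carried. Of 15 thick limb and distal tubule genes 5 were higher as deposited and 3 scaled, beside 48.2% and 25.7% of all genes. Without tumor 1 the count as deposited was 12. Umod, the uromodulin gene of the thick limb, stood at 209, 1140.3 and 2278 FPKM in the tumors and 159, 264 and 271 in the sorted cells (adjusted p = 0.0615). Slc12a1, the target of loop diuretics, stood at 44.9, 342 and 1089 FPKM against 44.7, 75.7 and 90.5 (adjusted p = 0.0822). Tumor 3 was highest and tumor 1 was within or near the sorted range, so neither was called. The 3 genes that rose under both treatments were those of paracellular and transcellular magnesium transport: Cldn16, Cldn19 and Trpm6. Cldn19 stood at 26.9, 16.4 and 57.0 FPKM against 2.73, 2.12 and 2.496 (3.14 ± 0.49, adjusted p = 0.00049, scaled 2.63), and Cldn16 at 7.07, 15.3 and 25.4 against 1.60, 1.87 and 3.07 (2.28 ± 0.35, adjusted p = 0.000482, scaled 1.78). Trpm6 stood at 9.89, 8.77 and 9.07 FPKM against 0.918, 1.58 and 2.61 (1.97 ± 0.28, adjusted p = 0.000281, scaled 1.51). Trpm6 was near even in the 3 tumors, and all 3 genes were higher in tumor 1 alone once scaled (2.54, 0.92 and 1.63).

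In the collecting duct list 7 of 14 genes were higher as deposited and 3 scaled, near the shares of 48.2% and 25.7% over all genes, and the count as deposited was 13 without tumor 1 and 3 or 4 without any other library. The water channel gene Aqp2 stood at 2.77, 192 and 829.8 FPKM in the tumors and 23.7, 31.4 and 31.6 in the sorted cells, lower in tumor 1 and higher in tumors 2 and 3, with no call (adjusted p = 0.396). The 3 that rose were Atp6v1g3 and Atp6v0d2, for subunits of the proton pump, and Foxi1, for a factor of acid-secreting intercalated cells. Atp6v1g3 stood at 13.0, 29.3 and 26.6 FPKM against 4.16, 3.06 and 4.56 (2.22 ± 0.27, adjusted p = 0.00012, scaled 1.66). Foxi1 stood at 5.61, 8.93 and 15.7 FPKM against 1.63, 1.59 and 2.30 (1.87 ± 0.27, adjusted p = 0.000358, scaled 1.39). Their groups did not overlap, whereas Slc4a1, the anion exchanger gene of the same cells, stood at 0.376, 7.52 and 24.3 FPKM against 2.40, 2.34 and 3.503 (adjusted p = 0.376). Of 10 podocyte genes 8 were higher as deposited and 7 scaled, when Magi2 and Clic5, which other cells share, were lower. Cdkn1c, a cell cycle inhibitor gene of mature podocytes and other tissues, stood at 28.4, 40.0 and 19.8 FPKM against 1.05, 0.829 and 0.832 (3.95 ± 0.28, adjusted p = 6.55e-06, scaled 3.54).

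**Figure D3:**
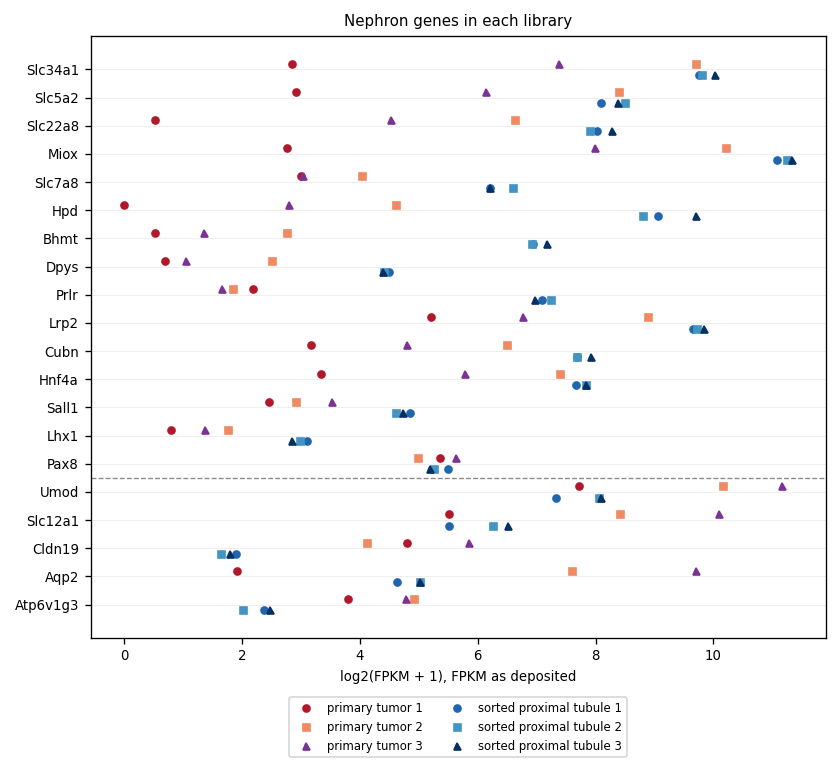
Levels as log2(FPKM + 1), FPKM as deposited (horizontal axis), of 15 genes of the proximal tubule or renal lineage (above the dashed line) and 5 genes of other nephron segments (below it) in each library. Hpd, Bhmt, Dpys, Prlr and Slc7a8 are below the sorted cells in all 3 tumors, Slc34a1 and Slc5a2 in tumor 2 are near the sorted level, and Umod, Slc12a1 and Aqp2 are highest in tumor 3.

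The sexes of the libraries were not balanced, and many mouse kidney genes are under androgen control. Xist, expressed from the inactive X chromosome, stood at 163, 0.323 and 0.374 FPKM in the tumors and 183, 156 and 141 in the sorted cells, and the Y-linked Uty at 0.331, 30.2 and 23.4 against 0.117, 0.0555 and 0.0607. Tumors 2 and 3 therefore had the male pattern, and tumor 1 and the sorted libraries the female one. The calls of Xist (-4.58 ± 1.46, adjusted p = 0.0226, not called without tumor 2 or 3 or sorted library 1, 2 or 3, adjusted p = 0.0519 to 0.0828) and of the 4 Y-linked genes, which were all higher, describe this split, and without tumor 3 only 1 of the Y-linked genes was called. Of the 14 male-biased kidney genes tested 5 were higher as deposited and 3 scaled, and the count as deposited was 11 without tumor 1 and 2 without any other library. Kap, the androgen-regulated kidney protein gene, stood at 112, 53375 and 12895 FPKM in the tumors against 1219.5, 977 and 342, and Slc7a13, a cystine transporter gene of the straight proximal tubule in males, at 0.458, 279.8 and 105 against 0.709, 0.467 and 0.678. Both were high in tumors 2 and 3 alone, as was Slco1a1, an androgen-dependent transporter gene that did not pass the filter (0.0725, 258 and 40.3 FPKM against 0.109, 0.125 and 0.226). Cyp7b1 and Cyp2j13 rose, at 5.88, 92.5 and 107 FPKM against 0.513, 0.471 and 0.425 (4.81 ± 0.84, adjusted p = 0.000995, scaled 4.47) and 4.85, 173 and 35.0 against 0.740, 0.993 and 0.540 (4.25 ± 0.89, adjusted p = 0.00276, scaled 3.86). These were also higher in tumor 1 alone once scaled (1.94 and 1.41).

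Of 6 female-biased kidney genes 3 were lower under both treatments. The prolactin receptor gene Prlr (chr15:10177238-10349180) was low in all tumors at 3.58, 2.60 and 2.15 FPKM against 136, 151 and 125 (-5.21 ± 0.22, adjusted p = 2.71e-07, scaled -5.80), and tumor 1, which had the female pattern as the sorted cells did, was as low as the others (-5.49 alone, scaled). Cyp4a14, a fatty acid hydroxylase gene, stood at 0.359, 26.2 and 8.83 FPKM against 228, 206 and 297 (-5.08 ± 0.80, adjusted p = 0.000549, scaled -5.69). Cyp2a4 went against its list, at 0.625, 358 and 118 FPKM against 9.57, 22.7 and 10.3, high in tumors 2 and 3 and low in tumor 1, with no call (adjusted p = 0.405). In tumors 2 and 3 sex and tumor therefore cannot be told apart for any gene, those of the transporter and enzyme lists included. Tumor 1 gives the only comparison within the female pattern.

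**Figure D4:**
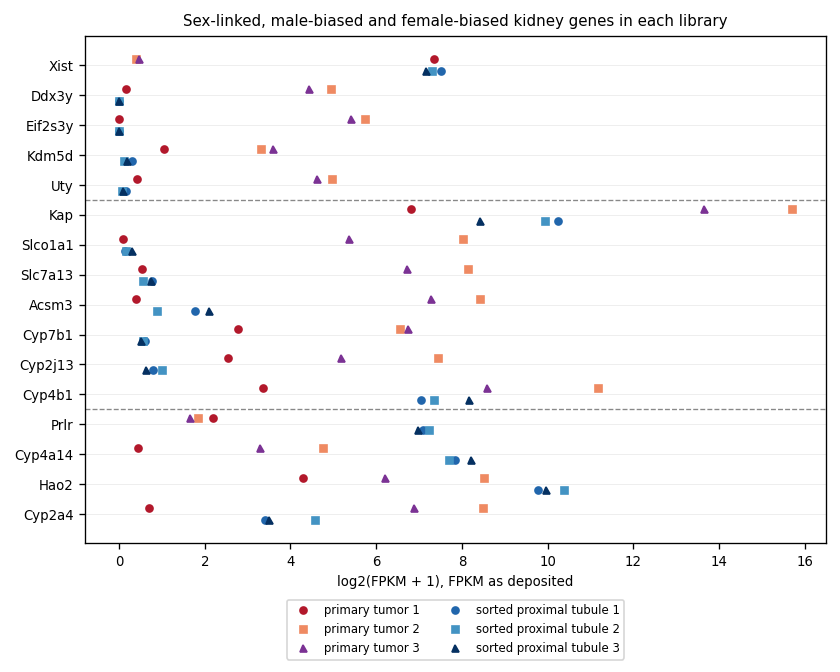
Levels as log2(FPKM + 1), FPKM as deposited (horizontal axis), of 5 sex-linked genes (top), 7 male-biased kidney genes (middle) and 4 female-biased ones (bottom) in each library. Xist is high in tumor 1 and the sorted cells and near 0 in tumors 2 and 3, the Y-linked genes are the reverse, and Prlr is low in all 3 tumors.

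Of 16 genes that mark injured and repairing tubule cells 11 were higher as deposited and 8 scaled (medians 2.08 and 1.62). Lcn2, which encodes the iron-binding protein NGAL released by damaged tubules, stood at 328, 30.1 and 112 FPKM in the tumors and 0.600, 0.463 and 0.501 in the sorted cells (6.11 ± 0.88, adjusted p = 0.000316, scaled 5.76). Anxa2, an annexin gene, stood at 334, 82.2 and 133 FPKM against 8.56, 6.70 and 9.53 (4.08 ± 0.42, adjusted p = 5.14e-05, scaled 3.48). Cd44, the hyaluronan receptor gene, stood at 36.6, 4.61 and 7.34 FPKM against 0.372, 0.357 and 0.348 (3.15 ± 0.53, adjusted p = 0.000821, scaled 2.86). Tumor 1 was highest for each. Cd24a, a surface protein gene of tubule progenitors, was highest in tumor 3 instead, at 258, 137 and 319.9 FPKM against 24.2, 24.2 and 21.4 (3.22 ± 0.30, adjusted p = 3.03e-05, scaled 2.59). Havcr1, which encodes the injury protein KIM-1, stood at 18.0, 1.66 and 1.93 FPKM against 0.579, 0.790 and 1.05 and was not called (adjusted p = 0.0529), being far above the sorted cells in tumor 1 alone. Krt20 was above them in tumor 1 only (16.9, 0.113 and 0.168 FPKM against 0.326, 0.418 and 0.362, adjusted p = 0.349). Spp1, the osteopontin gene, was the most abundant on the list at 4779, 715 and 974 FPKM against 1170.0, 917 and 1051 and was not called (adjusted p = 0.526).

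Of 8 keratin and vimentin genes 7 rose under both treatments, each also called with any 1 library left out. Krt19 and Krt7, keratins of ducts, stood at 61.7, 17.2 and 40.0 FPKM against 0.528, 0.206 and 0.444 (4.70 ± 0.41, adjusted p = 2.15e-05, scaled 4.39) and 77.1, 68.6 and 118 against 11.3, 11.8 and 12.6 (2.74 ± 0.36, adjusted p = 0.00018, scaled 2.13). Krt7 was highest in tumor 3 and Krt19 in tumor 1. Krt8 was the exception, at 115, 100.4 and 85.6 FPKM against 102, 75.1 and 52.3 (0.43 ± 0.23, adjusted p = 0.145), and its partner Krt18 rose from 6.05, 6.25 and 4.83 to 62.2, 23.9 and 42.5 (2.61 ± 0.29, adjusted p = 7.63e-05, scaled 2.03). Vim, the intermediate filament gene of mesenchyme and injured tubules, stood at 465, 67.9 and 76.0 FPKM against 13.0, 10.1 and 12.6 (3.40 ± 0.58, adjusted p = 0.00084, scaled 2.78). Nes stood at 18.4, 12.9 and 10.5 FPKM against 1.24, 1.15 and 0.823 (2.82 ± 0.22, adjusted p = 1.22e-05, scaled 2.40). Vim was several times higher in tumor 1 than in the others, while Nes varied less. Of 17 epithelial junction genes tested 11 were higher as deposited and 8 scaled, and 1 was lower scaled. Claudin genes of ducts and distal tubules were among them, Cldn3 at 30.8, 9.42 and 20.2 FPKM against 0.446, 0.710 and 0.506 (3.63 ± 0.68, adjusted p = 0.00151, scaled 3.28). Cldn7 stood at 25.5, 12.6 and 27.8 FPKM against 1.79, 3.05 and 3.43 (2.56 ± 0.45, adjusted p = 0.000988, scaled 2.04). Cldn2, the claudin of the proximal tubule itself, stood at 46.1, 175 and 52.7 FPKM against 192, 188 and 242 and was called lower only once scaled (-2.08, adjusted p = 0.0216). Cdh3, which encodes P-cadherin, rose in all tumors (20.6, 6.72 and 13.7 FPKM against 0.899, 1.21 and 1.15, 2.70 ± 0.32, adjusted p = 0.000108, scaled 2.28), and Cdh2, N-cadherin, was well above the sorted cells in tumor 1 only (43.3, 3.56 and 4.53 FPKM against 3.28, 4.51 and 2.96, adjusted p = 0.177).

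Among 14 genes used as markers of renal carcinoma 8 were higher and 1 lower as deposited, and 5 and 3 scaled, with 5 higher as deposited without tumor 1 or sorted library 2 or 3. Over all genes 48.2% were higher as deposited and 25.7% scaled. Cp, which encodes ceruloplasmin, stood at 213, 62.6 and 65.4 FPKM against 5.27, 3.65 and 3.62 (4.24 ± 0.57, adjusted p = 0.000212, scaled 3.68). Mal2, a vesicle transport gene, stood at 42.2, 38.4 and 102 FPKM against 3.98, 6.29 and 6.20 (3.13 ± 0.54, adjusted p = 0.000955, scaled 2.55). Cp was highest in tumor 1 and Mal2 in tumor 3. Car9 and Vegfa, targets of the hypoxia factors that are raised in clear cell carcinoma, were not called, at 1.60, 5.30 and 2.70 FPKM against 1.78, 3.65 and 3.59 (adjusted p = 0.988) and 52.2, 198 and 132 against 159, 126 and 132 (adjusted p = 0.578). Of the 15 hypoxia response genes tested 3 were higher and 1 lower as deposited, and none higher and 2 lower scaled. Ndrg1 was the one lower under both treatments (115, 820.0 and 263 FPKM against 1980.5, 1464 and 1301, -2.41 ± 0.61, adjusted p = 0.00761, scaled -3.06).

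Of 10 regulators and markers of mesenchymal transition 8 rose, each highest or near highest in tumor 1. Of the 10, 6 were under 1 FPKM in each sorted library and so could pass the filter only through other libraries. Zeb1 and Snai2, which encode repressors of E-cadherin, stood at 20.6, 12.3 and 16.2 FPKM against 5.04, 2.84 and 3.84 (1.82 ± 0.21, adjusted p = 9.1e-05, scaled 1.27) and 4.84, 2.22 and 4.31 against 0.582, 0.530 and 0.476 (1.60 ± 0.33, adjusted p = 0.00274, scaled 1.29). E-cadherin itself, Cdh1, stood at 38.6, 44.2 and 71.0 FPKM against 13.4, 16.1 and 16.9 and was called higher as deposited (1.63 ± 0.45, adjusted p = 0.0121), though not once scaled (1.01, adjusted p = 0.0934). Twist1 was high in tumor 1 only (7.98, 0.605 and 0.455 FPKM against 0.128, 0.318 and 0, adjusted p = 0.168). Of 24 extracellular matrix genes 18 were higher as deposited, and 17 higher and 1 lower scaled (medians 2.87 and 2.51). Bgn, a small proteoglycan gene, stood at 320.3, 80.8 and 166 FPKM against 5.35, 3.42 and 4.47 (4.93 ± 0.43, adjusted p = 2.22e-05, scaled 4.37). Lamb3, a subunit gene of an epithelial laminin, stood at 66.7, 40.6 and 58.8 FPKM against 5.44, 0.356 and 0.576 (4.53 ± 0.49, adjusted p = 7.3e-05, scaled 4.11). Lamb3 varied little among the tumors, and sorted library 1 held more of it than the other sorted libraries. Tgfbi and Col6a1 stood at 100.3, 17.2 and 16.0 FPKM against 0.520, 0.115 and 0.497 (4.53 ± 0.54, adjusted p = 0.000117, scaled 4.23) and 52.97, 12.4 and 16.8 against 0.326, 0.254 and 0.235 (4.21 ± 0.42, adjusted p = 4.39e-05, scaled 3.93), both highest in tumor 1. The basement membrane collagen genes Col4a1 and Col4a2 were above the sorted cells mainly in tumor 1 and were not called (217, 52.0 and 54.6 FPKM against 50.02, 35.4 and 34.1, adjusted p = 0.0787, and 133, 33.5 and 39.1 against 37.3, 27.2 and 26.2, adjusted p = 0.114). Plau, the urokinase gene, was abundant in both groups at 188, 209 and 289.8 FPKM against 211, 241 and 326 (adjusted p = 0.557), and was called lower once scaled (-0.83, adjusted p = 0.0215).

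Of 13 fibroblast genes 12 were higher as deposited and 11 scaled, and the defining genes were near 0 in the sorted cells. Pdgfra, a fibroblast receptor gene, stood at 36.4, 24.7 and 41.3 FPKM against 0.0894, 0.114 and 0.148 (4.94 ± 0.36, adjusted p = 8.67e-06, scaled 4.72). Dcn stood at 130.4, 40.9 and 98.6 FPKM against 0.130, 0.395 and 0.319 (6.00 ± 0.49, adjusted p = 1.51e-05, scaled 5.72). These 2 genes were at like levels in tumors 1 and 3, whereas the collagen gene Col3a1 was far higher in tumor 1 (439.7, 33.3 and 56.2 FPKM against 0.811, 0.237 and 0.454, 6.01 ± 0.77, adjusted p = 0.000164, scaled 5.67). Postn, the periostin gene of active scar, stood at 193, 1.94 and 6.37 FPKM against 0.0683, 0 and 0 (3.98 ± 1.18, adjusted p = 0.0167, scaled 3.83), and was not called with the spread of the 6 libraries alone (adjusted p = 0.0806). Of 10 smooth muscle and pericyte genes 4 were higher and 1 lower as deposited (2 higher without sorted library 3), and 3 and 1 scaled. The higher shares were near the 48.2% as deposited and 25.7% scaled of all genes. Tagln, the transgelin gene, stood at 125, 35.2 and 32.6 FPKM against 9.68, 8.74 and 7.31 (2.49 ± 0.41, adjusted p = 0.000673, scaled 1.89), while Acta2 was raised in tumor 1 (139.8, 15.9 and 23.5 FPKM against 18.0, 10.8 and 13.9, adjusted p = 0.0932).

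All 13 endothelial genes were higher as deposited and 9 scaled (medians 1.80 and 1.27). Some were close to even across the tumors, such as Egfl7, Emcn and Ehd3, and others were highest in tumor 3, such as Vwf at 2.24, 1.98 and 7.29 FPKM and Esam at 15.6, 13.97 and 33.3. Egfl7 stood at 41.9, 43.8 and 56.2 FPKM against 8.51, 5.95 and 3.81 (2.81 ± 0.34, adjusted p = 0.000124, scaled 2.23), and Emcn at 69.8, 65.5 and 77.7 against 18.9, 13.4 and 12.7 (2.19 ± 0.25, adjusted p = 9.36e-05, scaled 1.57). Ehd3, a gene of glomerular capillaries, stood at 10.1, 16.1 and 13.9 FPKM against 3.03, 3.08 and 3.02 (1.80 ± 0.24, adjusted p = 0.000187, scaled 1.27). The sorted cells held a measurable level of each. The genes of the VEGF receptors were less firm as deposited: Kdr was not called without tumor 2 or 3 or sorted library 2 or 3, adjusted p = 0.0805 to 0.131, and Flt1 was not called without tumor 2 or 3 or sorted library 2 or 3, adjusted p = 0.0709 to 0.157. Neither Kdr nor Flt1 was called once scaled, and Flt1 was not called with the spread of the 6 libraries alone. The hemoglobin genes Hbb-bs and Hba-a1 stood at 139, 891 and 724 FPKM against 11.4, 19.5 and 21.8 (4.64 ± 0.72, adjusted p = 0.000496, scaled 4.02) and 63.6, 422 and 343 against 19.7, 24.6 and 23.7 (3.16 ± 0.72, adjusted p = 0.00451, scaled 2.53), both lowest in tumor 1. These globin genes have near-identical copies between which reads can be split, so their levels are uncertain.

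Among 32 growth factor and receptor genes 16 were higher and 3 lower as deposited, and 11 higher and 6 lower scaled, so the higher share as deposited was near the 48.2% of all genes. The ligands that rose included products of stromal cells. Hgf, the ligand of MET, stood at 14.01, 8.39 and 17.8 FPKM against 0.0818, 0.0625 and 0.0679 (3.69 ± 0.43, adjusted p = 0.000105, scaled 3.50), and Igf1 at 28.7, 4.58 and 14.4 against 1.13, 1.12 and 1.19 (2.67 ± 0.51, adjusted p = 0.00159, scaled 2.25). Pdgfd stood at 32.8, 15.6 and 17.4 FPKM against 4.04, 3.14 and 1.84 (2.48 ± 0.44, adjusted p = 0.00106, scaled 1.95). None overlapped the sorted cells, and tumor 2 was lowest for each. Tgfb1 stood at 17.9, 3.80 and 9.89 FPKM against 1.99, 1.52 and 0.709 (2.09 ± 0.41, adjusted p = 0.00191, scaled 1.66). The Wnt ligand gene Wnt7b stood at 4.79, 1.80 and 8.31 FPKM against 0.368, 0.170 and 0.457 (2.01 ± 0.39, adjusted p = 0.00188, scaled 1.75). Receptors went both ways. Fgfr2 rose (15.6, 8.68 and 14.46 FPKM against 2.27, 3.07 and 2.10, 1.97 ± 0.25, adjusted p = 0.000144, scaled 1.46), while Erbb2 fell from 31.3, 26.9 and 30.2 to 7.01, 9.90 and 14.1 FPKM (-1.47 ± 0.21, adjusted p = 0.000271, scaled -2.09). Igf1r, the receptor of the raised Igf1, fell as well (22.8, 31.5 and 31.6 FPKM against 56.5, 58.5 and 72.5, -1.11 ± 0.19, adjusted p = 0.00098, scaled -1.74). Erbb2 was lowest in tumor 1 and Igf1r too, and neither overlapped the sorted cells. Met, the receptor of HGF, was called higher as deposited (59.2, 80.3 and 64.8 FPKM against 35.5, 24.9 and 31.7, 1.13 ± 0.24, adjusted p = 0.00318) but not scaled (0.50, adjusted p = 0.0962).

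Macrophage genes had the highest median change of the lists. Of 14 genes 13 rose and 1 was lower once scaled, with medians of 3.93 and 3.69, and their sum was 2993, 459 and 620.3 FPKM in the tumors against 32.0, 27.9 and 29.2 in the sorted cells. Lyz2 (chr10:117277331-117282321), the lysozyme gene of macrophages and neutrophils, led the 10 largest rises, a ranking that left out small RNA genes, predicted genes, pseudogenes and immune receptor segments, at 1198, 197 and 318 FPKM against 0.911, 0.525 and 1.32 (7.80 ± 0.62, adjusted p = 1.36e-05, scaled 7.39). Adgre1, which encodes F4/80, stood at 92.0, 15.4 and 22.8 FPKM against 0, 0.0491 and 0.210 (4.93 ± 0.76, adjusted p = 0.000479, scaled 4.73) and the mannose receptor gene Mrc1 at 126, 10.8 and 16.2 against 0.153, 0.175 and 0.158 (4.67 ± 0.73, adjusted p = 0.000539, scaled 4.43). Tumor 1 held several times more of each than tumors 2 and 3. The exception was Mertk, at 16.0, 24.3 and 19.7 FPKM against 23.4, 19.2 and 21.1 (adjusted p = 0.708, scaled -0.72, adjusted p = 0.0137). Lyz2 has a near-identical copy, Lyz1, so reads may be split between them. Of 7 neutrophil genes tested 5 were higher as deposited (2 without tumor 1 or sorted library 2) and 4 scaled, at low levels, with Csf3r at 6.46, 1.85 and 2.04 FPKM against 0.490, 0.168 and 0.319 (1.60 ± 0.33, adjusted p = 0.00261, scaled 1.36). Ly6g, Camp and Ngp did not pass the filter and were near 0 in all 6 libraries.

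The 11 T cell genes tested were low in the tumors. All 11, like all 11 B and plasma cell genes tested below, were under 1 FPKM in each sorted library and so could pass the filter only through other libraries. That each was called higher is therefore largely fixed by the filter and supports nothing. The same holds in part for other lists, as 7 of 9 dendritic cell, 6 of 6 cytotoxic, 9 of 14 macrophage, 10 of 13 fibroblast, 6 of 9 checkpoint and 9 of 18 chemokine genes were under 1 FPKM in each sorted library. So were 5 of 7 neutrophil, 6 of 10 mesenchymal transition, 7 of 14 mitosis, 7 of 16 complement and acute phase, 8 of 24 extracellular matrix and 4 of 4 mesothelial genes. Cd4 stood at 8.96, 5.94 and 8.26 FPKM against 0.317, 0.0982 and 0.212 (2.84 ± 0.20, adjusted p = 6.35e-06, scaled 2.60). Cd8a stood at 2.42, 2.09 and 2.30 FPKM against 0.330, 0.862 and 0.434 (1.10 ± 0.15, adjusted p = 0.00027, scaled 0.80). Cd3g, a chain of the T cell receptor complex, stood at 7.25, 7.04 and 7.51 FPKM and was listed at 0 in all sorted libraries, so no fold is given (adjusted p = 8.67e-06). Among the B and plasma cell genes tumor 1 was the lowest tumor for all but Fcer2a. Jchain, which encodes the joining chain of secreted antibodies, stood at 43.8, 129 and 127 FPKM against 0.114, 0.432 and 0.373 (6.12 ± 0.42, adjusted p = 5.83e-06, scaled 5.83), and Mzb1 at 1.81, 9.39 and 10.95 against 0, 0.212 and 0.229 (2.62 ± 0.46, adjusted p = 0.001, scaled 2.41). Ighm stood at 71.0, 157 and 296 FPKM with 0 listed in the sorted cells (adjusted p = 3.36e-05). Dendritic cell genes were higher in 9 of 9 cases as deposited and 8 scaled. Clec9a, of the cross-presenting subset, stood at 2.07, 4.80 and 6.49 FPKM with 0 listed in the sorted cells (adjusted p = 0.000527), lowest in tumor 1, and Itgax, which encodes CD11c, at 29.6, 6.96 and 7.53 against 0.0961, 0.151 and 0 (3.56 ± 0.49, adjusted p = 0.000252, scaled 3.37), highest in tumor 1. Of the 6 cytotoxic cell genes tested 4 were higher as deposited (1 or 2 without any 1 library) and 2 scaled, and only Nkg7 reached 2 FPKM in a tumor (2.89, 3.29 and 3.72 FPKM, listed at 0 in the sorted cells, adjusted p = 2.56e-05).

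All 15 antigen presentation genes rose under both treatments, and each kept its call with any 1 library left out. Cd74, the invariant chain of class II molecules, stood at 1304, 673 and 712 FPKM against 52.3, 41.2 and 53.01 (4.11 ± 0.34, adjusted p = 1.64e-05, scaled 3.47). H2-Eb1 stood at 385, 202 and 169.7 FPKM against 8.46, 5.70 and 7.74 (4.85 ± 0.50, adjusted p = 5.67e-05, scaled 4.26). The immunoproteasome gene Psmb8 stood at 74.7, 23.3 and 27.4 FPKM against 4.23, 1.79 and 2.53 (3.33 ± 0.59, adjusted p = 0.0011, scaled 2.80). B2m, common to class I molecules, stood at 1785, 799 and 818 FPKM against 295, 272 and 286 (1.89 ± 0.37, adjusted p = 0.00189, scaled 1.24). Tumor 1 was highest and the other two were close together. All 16 interferon response genes were higher as deposited and 15 scaled, with Ifi44 at 49.0, 7.39 and 14.3 FPKM against 2.67, 0.989 and 1.07 (2.91 ± 0.53, adjusted p = 0.00132, scaled 2.46). Isg15 stood at 76.5, 7.46 and 11.02 FPKM against 1.77, 0.274 and 1.19 (3.33 ± 0.67, adjusted p = 0.0022, scaled 2.94). Of 9 immune checkpoint genes tested 8 rose. Havcr2, which encodes TIM-3, stood at 4.96, 1.57 and 2.18 FPKM against 0.0813, 0 and 0 (1.83 ± 0.30, adjusted p = 0.000666, scaled 1.70), Cd86 at 16.4, 3.92 and 4.88 against 0, 0 and 0.0691 (2.96 ± 0.43, adjusted p = 0.000364, scaled 2.81), and Cd274, which encodes PD-L1, was the one not called (5.78, 3.33 and 6.68 FPKM against 2.52, 2.07 and 2.24, adjusted p = 0.0504).

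Of 18 chemokine genes tested 14 were higher as deposited and 11 scaled. Cx3cl1, the membrane-bound ligand of monocytes and T cells, stood at 68.7, 33.6 and 46.9 FPKM against 5.20, 6.22 and 4.69 (2.94 ± 0.34, adjusted p = 8.99e-05, scaled 2.36) and the epithelial chemokine gene Ccl28 at 6.85, 26.0 and 13.9 against 0.176, 0.357 and 0.386 (3.49 ± 0.38, adjusted p = 7.52e-05, scaled 3.21), highest in tumor 2. Cxcl13, the B cell attractant, stood at 15.7, 13.6 and 19.7 FPKM against 0, 0.160 and 0 (4.03 ± 0.39, adjusted p = 3.64e-05, scaled 3.84). The lymph node chemokine Ccl19 stood at 8.36, 14.6 and 22.0 FPKM with 0 listed in the sorted cells (adjusted p = 1.42e-05). Ccl19 was lowest in tumor 1, while the monocyte chemokine Ccl6 was far higher there (88.0, 4.86 and 4.71 FPKM against 0, 0 and 0.133, 3.79 ± 0.92, adjusted p = 0.00599, scaled 3.62). Among 16 complement and acute phase genes 10 were higher as deposited, and 6 higher and 2 lower scaled. The C1 inhibitor gene Serping1 rose in every tumor (205, 92.9 and 141 FPKM against 1.78, 1.28 and 1.78, 5.75 ± 0.45, adjusted p = 1.26e-05, scaled 5.27). Il34, a ligand of the macrophage receptor CSF1R, stood at 22.8, 14.4 and 23.4 FPKM against 1.28, 0.635 and 0.196 (3.66 ± 0.29, adjusted p = 1.34e-05, scaled 3.30). Cfb and C2, complement protease genes, stood at 55.8, 177 and 45.7 FPKM against 130.0, 136 and 178 and 24.7, 17.9 and 9.83 against 28.5, 30.005 and 40.0, and were called lower only once scaled (-1.57 and -1.57).

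Proliferation genes were highest in tumor 1. Of 14 mitosis genes 6 were higher as deposited and 3 scaled, beside 48.2% and 25.7% of all genes. The count as deposited was 14 without tumor 2 and 13 without tumor 3. With tumor 1 as the only tumor all 14 were higher once scaled. Top2a, topoisomerase II alpha, stood at 38.4, 4.31 and 4.81 FPKM against 0.914, 1.62 and 1.24 (2.25 ± 0.65, adjusted p = 0.0144, scaled 1.82, adjusted p = 0.0653 with the spread of the 6 libraries alone). Cdk1 stood at 12.9, 1.03 and 0.699 FPKM against 0, 0.827 and 0.299, with no call (adjusted p = 0.0892). Of 16 DNA replication genes 10 were higher as deposited (6 without sorted library 2), and 3 higher and 1 lower scaled, beside the same shares over all genes. Mcm6, a helicase subunit gene, stood at 32.6, 12.003 and 9.86 FPKM against 3.83, 3.47 and 4.95 (1.74 ± 0.37, adjusted p = 0.0029, scaled 1.18). Cdkn2a, which encodes p16 and ARF, was low but rose, at 0.898, 1.09 and 1.30 FPKM with 0 listed in the sorted cells (adjusted p = 0.00694), next to its neighbor Cdkn2b (4.67, 2.97 and 8.42 FPKM against 0.559, 0.666 and 0.359, 1.97 ± 0.33, adjusted p = 0.000781, scaled 1.65). Cdkn1a, the p53 target p21, was not called (14.3, 5.02 and 7.14 FPKM against 9.15, 7.87 and 6.32, adjusted p = 0.894).

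Of 17 glycolysis genes 5 were higher and 1 lower as deposited, and 5 and 4 scaled. The higher share was below the 48.2% of all genes as deposited and near the 25.7% scaled. The lower count as deposited was 4 without tumor 2 and 0 without tumor 3 or sorted library 1. The 5 that rose were Hk1, Hk2, Pfkp, Pkm and Pfkfb3. Pfkp, a phosphofructokinase isoform, stood at 28.5, 22.7 and 33.4 FPKM against 2.53, 5.02 and 3.93 (2.61 ± 0.27, adjusted p = 5.86e-05, scaled 2.06). Pkm, a pyruvate kinase gene, stood at 213, 117 and 184 FPKM against 17.7, 21.6 and 27.9 (2.86 ± 0.30, adjusted p = 6.29e-05, scaled 2.23). Hk1 stood at 26.8, 27.4 and 59.2 FPKM against 6.49, 7.60 and 9.08 (2.07 ± 0.35, adjusted p = 0.000828, scaled 1.47), and Hk2 was near 0 in the sorted cells and highest in tumor 1 (9.14, 1.06 and 1.47 FPKM against 0.103, 0.0266 and 0.0575, 1.81 ± 0.52, adjusted p = 0.0139, scaled 1.67, adjusted p = 0.0565 with the spread of the 6 libraries alone). The most abundant enzymes were not called higher, with Gapdh at 502, 1477 and 662 FPKM against 1232, 1367 and 1441 (adjusted p = 0.13, called lower once scaled, -1.42). Ldha was not called either (176, 435 and 182 FPKM against 276, 235 and 269, adjusted p = 0.824).

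Oxidative genes were lowest in tumor 1. Of 19 fatty acid oxidation and peroxisome genes 3 were lower as deposited and 9 scaled, and the count as deposited was 11 without tumor 2 and 1 without tumor 1, tumor 3 or sorted library 2 or 3. Acsl1, which activates long-chain fatty acids, was low in all tumors (17.3, 61.4 and 45.3 FPKM against 209, 167 and 169, -2.28 ± 0.64, adjusted p = 0.0132, scaled -2.92), while Acadm, the medium-chain dehydrogenase gene, was at 36.0, 546 and 244 against 186, 209 and 232 (adjusted p = 0.752), below the sorted cells in tumor 1 only. None of 18 nuclear genes of the respiratory chain was called by limma as deposited, with 0 at an unadjusted p under 0.05, and 7 were lower scaled. The count as deposited was 14 without tumor 2, and with tumor 1 as the only tumor all 18 were lower once scaled (median -2.10). Atp5b, an ATP synthase subunit gene, stood at 357, 1829 and 724 FPKM against 983, 1125 and 1146 (adjusted p = 0.415).

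Of 7 mitochondrially encoded messages 5 were lower as deposited and all 7 scaled, with medians of -3.65 and -4.30. Complex I subunit mt-Nd4 stood at 166, 1516 and 1492 FPKM against 21216, 21729.5 and 17677 (-4.80 ± 0.74, adjusted p = 0.000468, scaled -5.45). mt-Atp6 stood at 1018, 8496 and 6972 FPKM against 53095, 63849.9 and 52797 (-3.84 ± 0.72, adjusted p = 0.00149, scaled -4.49, adjusted p = 0.125 with the spread of the 6 libraries alone). In tumor 2, where Atp5b was above the sorted cells as deposited, both messages were still several times lower than in the sorted cells. As deposited, the cytochrome oxidase message mt-Co1 was not: it stood at 5329, 40376 and 23604 FPKM against 48487, 49317 and 40289 (adjusted p = 0.125), so that tumor 2 lay within the sorted range. Once scaled, mt-Co1 was called lower too, and no tumor reached the sorted range. The small ribosomal RNA of the mitochondrion went the other way, mt-Rnr1 at 4190.0, 56976 and 27255 FPKM against 124, 147 and 225 (6.86 ± 0.90, adjusted p = 0.000187, scaled 6.21), and the large one, mt-Rnr2, was not called (6527, 63876 and 33275 FPKM against 7762, 7698 and 5776, adjusted p = 0.101). The amount of ribosomal RNA in a library depends on its preparation, whose kind the labels leave out. Its part in these values was not tested.

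Of 14 NRF2 target genes, which respond to oxidative stress, 5 were higher and 2 lower as deposited (5 lower without tumor 2), and 2 and 4 scaled. The higher shares were below the 48.2% and 25.7% of all genes. Slc7a11, the cystine importer gene, stood at 17.6, 16.0 and 19.3 FPKM against 5.68, 4.76 and 4.67 (1.63 ± 0.19, adjusted p = 0.000113, scaled 1.06), even in the 3 tumors. Gsta4, a glutathione transferase gene, stood at 18.2, 22.0 and 19.9 FPKM against 104, 113 and 116 (-2.42 ± 0.56, adjusted p = 0.00465, scaled -3.05), also even and low. Osgin1 fell with it (3.19, 18.7 and 9.52 FPKM against 43.2, 42.7 and 39.5, -2.17 ± 0.45, adjusted p = 0.00263, scaled -2.78). Nqo1, the most used NRF2 target, was low in tumor 1 and above the sorted cells in tumors 2 and 3 (4.51, 60.8 and 28.6 FPKM against 15.9, 17.0 and 21.5, adjusted p = 0.835).

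Immediate early genes, which cells switch on within minutes of a stimulus, were lower in the tumors in 11 of 19 cases as deposited and 15 scaled, and none was higher. Fosb and Egr1 stood at 0.965, 0.150 and 0.931 FPKM against 212, 138 and 68.1 (-6.28 ± 0.73, adjusted p = 9.7e-05, scaled -6.80) and 7.76, 5.13 and 10.1 against 91.3, 76.6 and 44.1 (-3.03 ± 0.33, adjusted p = 7.22e-05, scaled -3.64). Jun stood at 28.4, 12.4 and 17.5 FPKM against 329, 225 and 124 (-3.44 ± 0.46, adjusted p = 0.000225, scaled -4.07). Atf3, a stress factor gene, stood at 9.22, 2.22 and 2.60 FPKM against 30.6, 18.6 and 18.3 (-2.22 ± 0.40, adjusted p = 0.00121, scaled -2.80). The sorted libraries differed among themselves in these genes, with library 1 highest and library 3 lowest for Fosb, Egr1 and Jun, but all sorted libraries exceeded all tumors. Junb was not called (68.4, 27.4 and 37.3 FPKM against 50.8, 45.8 and 29.4, adjusted p = 0.983). Of 11 heat shock genes 1 was higher and 2 lower as deposited, and 7 lower scaled, but no lower call was left as deposited without sorted library 1 or 3. Hspa8, the most abundant of them, was not called (793, 1323 and 628 FPKM against 835, 544 and 779, adjusted p = 0.458).

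The 425 microRNA genes tested summed to 507931, 501130.0 and 499996 FPKM in the tumors and 6957, 5993 and 5350.2 in the sorted cells, and 296 of them were listed at 0 in all sorted libraries. As deposited 135 were higher and 3 lower, so the higher share was below the 48.2% of all genes. Mir6236 (chr9:110281287-110281409) made up nearly all of the tumor sum, at 491997, 485132 and 481226 FPKM against 37.0, 57.2 and 0. Mir3473f (chr1:106546496-106546631) stood at 686, 471 and 725 FPKM with 0 listed in the sorted cells (adjusted p = 3.56e-08). Their mature RefSeq sequences (GRCm38.p6) are shown because Mir6236 was the most abundant microRNA gene of the tumors, and Mir3473f was high in each tumor and listed at 0 in each sorted library. The seed, bases 2 to 8, is in capitals.
mmu-miR-6236, chr9:110281353-110281371, plus strand: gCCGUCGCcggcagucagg
mmu-miR-3473f, chr1:106546536-106546555, minus strand: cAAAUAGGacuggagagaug
The 2 seeds differ. A value per gene counts fragments over the gene and does not measure the mature microRNA. Of 92 small nucleolar RNA genes 63 were higher as deposited and 49 scaled, with Snord15b at 42505, 30119.6 and 44246 FPKM against 1888, 1889 and 2288 (4.25 ± 0.84, adjusted p = 0.00206, scaled 3.61). Snord22 stood at 31331, 15957 and 16674 FPKM against 444, 658 and 897 (4.98 ± 0.83, adjusted p = 0.000747, scaled 4.34). The minor spliceosome RNA gene Rnu12 stood at 16080.2, 9708 and 20622 FPKM against 432, 429 and 593 (4.94 ± 0.63, adjusted p = 0.000163, scaled 4.30). Clustered histone genes, whose messages carry no poly(A) tail, were higher in 47 of 59 cases as deposited and 37 scaled, with sums of 13461, 4077 and 2916 FPKM against 1693, 1529 and 1557. Cytosolic ribosomal protein genes, which carry one, were higher in 16 of 81 and lower in 1 as deposited, and in 0 and 1 scaled. In these classes the tumors and the sorted cells did not overlap in their sums except for the ribosomal protein genes, and the part of RNA preparation in that was not tested.

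Apart from genes already described, the same ranking of the 10 largest rises included Mgp, Dkk3, Cd52, Tyrobp, Ctss, C1qa and C1qb. Mgp (chr6:136872435-136875823), the matrix Gla protein gene that restrains calcification, stood at 2829.8, 541 and 532 FPKM against 4.71, 4.04 and 4.81 (7.41 ± 0.68, adjusted p = 2.86e-05, scaled 6.83). Dkk3, a secreted Dickkopf family gene, stood at 569, 113 and 160.4 FPKM against 0.479, 1.25 and 0.882 (6.89 ± 0.59, adjusted p = 1.89e-05, scaled 6.49). The other 5 are genes of leukocytes. The 10 largest falls held, besides those above, Ugt2b38, a glucuronosyltransferase gene with close relatives, at 0.131, 0.312 and 0.277 FPKM against 23.1, 65.9 and 54.9 (-5.18 ± 0.35, adjusted p = 5.83e-06, scaled -5.68). Slc22a29, an organic anion transporter gene, stood at 0.358, 1.57 and 0.454 FPKM against 46.1, 46.6 and 46.3 (-4.78 ± 0.21, adjusted p = 3.59e-07, scaled -5.33). Rdh16f2, a retinol dehydrogenase gene, stood at 1.96, 30.7 and 7.24 FPKM against 323, 276 and 362 (-5.12 ± 0.63, adjusted p = 0.000139, scaled -5.74). Ugt2b38 and Slc22a29 were highest among the tumors in tumor 2. The ranking kept only genes for which all tumors lay below all sorted libraries, so low levels in tumor 2 were required by it.

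Each tumor also had genes of its own, listed as a description because they were picked for their excess over the other tumors. Tumor 1 led in Retnla, a gene of alternatively activated macrophages, at 96.9, 0.735 and 0.327 FPKM, in the scar genes Cthrc1 (34.4, 0.185 and 0.247 FPKM) and Postn, in the imprinted gene Mest (55.6, 1.15 and 1.34 FPKM) and in the macrophage gene Fcrls (71.2, 0.871 and 2.43 FPKM). Tumor 2 led in Spink1 at 107, 1851 and 288 FPKM against 1042, 843 and 881 in the sorted cells, Dnase1 at 7.02, 3002 and 472 against 603, 813 and 1297, Cyp4b1 at 9.28, 2333 and 381 against 132, 163 and 286, Gsta2 at 20.6, 642 and 103 against 654, 734 and 799 and Ugt2b37 at 0.893, 595 and 96.7 against 6.86, 7.12 and 3.36. Tumor 3 led in Dab1 (0.649, 1.43 and 149 FPKM, with 2.62, 37.3 and 1.70 in the sorted cells), the mucin gene Muc20 (2.90, 3.18 and 26.0 FPKM), the collecting duct water channel gene Aqp4 (2.34, 9.87 and 64.7 FPKM) and Tnn (0.301, 1.27 and 12.4 FPKM). Sorted library 2 stood apart from the other sorted libraries in Dab1.

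Markers of cells from outside the kidney parenchyma were low. Of 4 mesothelial genes 1 was higher (3 without tumor 2), Upk3b at 0.996, 2.48 and 9.76 FPKM against 0, 0.0759 and 0 (2.04 ± 0.47, adjusted p = 0.00479, scaled 1.91), highest in tumor 3. None of the 4 adipocyte or 3 muscle genes tested was called by limma, and 0 and 0 had an unadjusted p under 0.05. None of the 6 pancreatic or 5 urothelial genes passed the filter. The urothelial and basal cell keratin gene Krt5 stood at 11.1, 0.0330 and 3.20 FPKM in the tumors and 0.0895, 0 and 0 in the sorted cells.

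**Figure D5:**
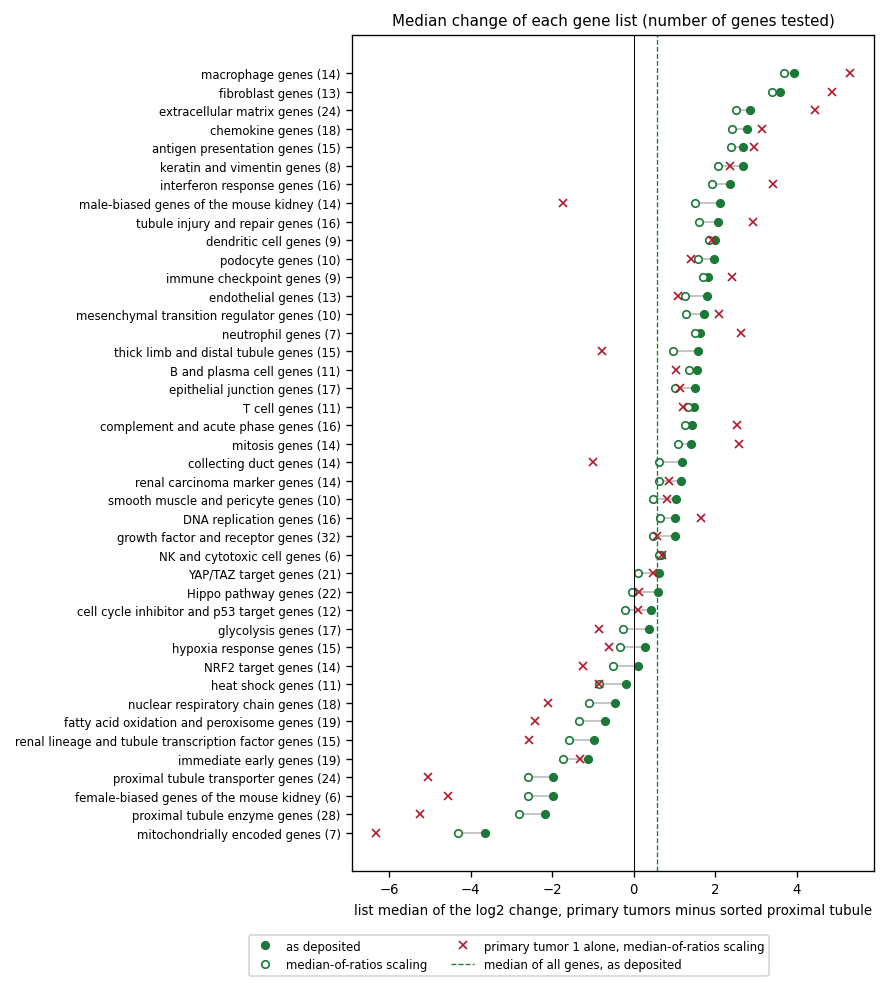
Median log2 change (horizontal axis, tumors minus sorted cells) of each gene list with at least 6 genes tested, as deposited (filled circles), scaled (open circles) and for tumor 1 alone, scaled (crosses). Macrophage genes are at 3.93 and mitochondrially encoded genes at -3.65 as deposited, and tumor 1 alone lies below 0 for the male-biased, thick limb and collecting duct lists, whose medians over the 3 tumors are above 0.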

How the data were processed

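Bulk RNA libraries were measured in 12 samples of 4 groups, of which the 3 primary tumors and the 3 sorted proximal tubule preparations are described. The authors deposited 1 table of FPKM values per gene and library. The submitters' processing notes name bcl2fastq 2.17.1.14, Salmon and the builds GRCm38 and mm10, and leave out the annotation, the gene lengths and the filters. From the deposited FPKM, log2(FPKM + 1) was fitted with limma 3.58.1 (R 4.3.3, trended prior) over all 12 libraries, so that the 4 groups shared 1 estimate of the spread. The contrast was tumors minus sorted cells, and p-values were adjusted by the Benjamini-Hochberg method over 16313 genes. These were the genes that reached 1 FPKM in 3 or more of the 12 libraries. The fit was tested on simulated data. Gene names and coordinates came from GENCODE M21 (24222 of 24432 identifiers matched). Fragment numbers were estimated from the steps between low values: 59.2% to 63.1% of such values were whole to within 0.05 fragments in the tumors, and 24.1% to 26.0% in the sorted libraries, whose depth is therefore uncertain.

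Genes were named by a rule: Lats1, Lats2, Slc34a1, the sex-linked genes, the 10 largest rises and falls called alike under both treatments without overlap and averaging 10 FPKM or more on the higher side (predicted genes, pseudogenes, immune receptor segments and small RNA genes left out), the 2 most abundant genes of each small RNA class, the leading, most abundant and scaling-dependent members of each list, and the 5 genes of largest excess in each tumor. Some genes that this rule names are not reported here. The members and lists were chosen with earlier results of these data known, and some further list members were named after their values were seen. Alternatives were other pseudocounts, filters, scaling, spread, weights, a replicate term and each library left out.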

Additional observations from a re-analysis of the deposited data

How the results depend on the processing

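The count of genes higher in the tumors (7861) fell to 4198 with median-of-ratios scaling and to 4697 with that scaling and tumor 1 as the only tumor, and was 6543 to 7641 with 1 library left out. The count of genes lower (800) was 2871 with that scaling, 1898 with array weights, 478 with the spread of the 2 groups alone, 1980 with tumor 1 as the only tumor and 3570 with both, and 524 to 1670 with 1 library left out, highest without tumor 2 and lowest without sorted library 3. The cause was not tested. The other pseudocounts, filters and robust prior left both counts within 1.5 times. The replicate numbers did not pair the libraries (correlations of deviations 0.078, -0.004 and -0.008), and with a replicate block 7737 genes were higher and 799 lower.

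Of 152 named genes called as deposited, 16 lost the call with the spread of the 2 groups alone, 7 with a pseudocount of 5, 7 once scaled and 2 with the replicate block (Flt1 and Wwc1). With scaling Lats1 turned to -0.52 and Wwtr1 to -0.034. Without tumor 2 Acy3 was at -2.01. With tumor 1 as the only tumor, as deposited and scaled, Aqp2 was at -2.97 and -3.53, Cyp2a4 at -3.12 and -3.62, Cyp4b1 at -4.17 and -4.76, Kap at -2.71 and -3.32, Nqo1 at -1.78 and -2.35, Slc4a1 at -1.43 and -1.83, Slc7a13 at -0.15 and -0.39, and Ugt2b37 at -1.79 and -2.26. Xist was then at 0.033 as deposited, and scaled Slc12a1 was at -1.18, Lats1 at -0.59, Flt1 at -0.092 and Kdr at -0.017. Sorted libraries were the shallower, so genes at low levels are least certain there.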
